A study of Zea mays with 12 samples.

Results

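The genes described are 48 of the 720 genes in a table of maize kernel expression whose descriptions hold the word kinase or phosphatase. They were taken from the 685 genes with identifiers below *Zm00001d002200*, and 8 further genes with these words were left out because their GO annotation holds the exact term chloroplast. The choice used no expression value. By their descriptions, 17 are receptor kinases, 15 are other protein kinases and 8 are protein phosphatases. A further 7 are kinases of metabolites or lipids and 1 is a purple acid phosphatase, so not all of them act on proteins. These classes follow the descriptions alone. *Zm00001d001813* counts among the other protein kinases but carries the same *Arabidopsis* synonym as the receptor kinase gene *Zm00001d001993*. *Zm00001d002167*, with the synonyms CRK6 and RLK5, is also among the other protein kinases.

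RNA was sequenced from whole kernels of the WT and of the small-kernel mutant *smk7a*, with 3 biological replicates of each genotype at 12 and 20 days after pollination (DAP) and thus 12 samples in 4 groups. The mutant is recessive and came from an EMS (ethyl methanesulfonate) mutant library in the B73 inbred background. It was kept as a heterozygote because the homozygous kernels do not give normal plants, and the WT and *smk7a* kernels were picked from the same segregating M8 ears. Both genotypes therefore share the ears and the B73 background, apart from the mutation and the segment linked to it. How the ears were divided among the replicates was not given in the sources used here. The authors mapped the mutation to an interval whose expressed genes have identifiers close to those of *Zm00001d001813* and *Zm00001d001831*, which are described below. For such genes, a linked variant and the mutation itself cannot be told apart. A WT kernel from such an ear can carry 1 mutant copy. The labels name no mutated gene, so no transcript checks the genotype labels.

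Protein kinases transfer the terminal phosphate of ATP to serine, threonine or tyrosine residues of other proteins, and protein phosphatases remove it. Receptor kinases span the plasma membrane and read peptides, hormones or wall fragments outside the cell, while type 2C phosphatases (PP2C) are metal-dependent enzymes that remove phosphate from serine and threonine, and several of them switch off kinase signaling in abscisic acid and stress responses. In the cereal kernel, kinases and phosphatases act in cell division, auxin transport and sugar sensing during endosperm and embryo growth, and metabolic kinases such as pyruvate kinase belong to the carbon metabolism that feeds starch and oil.

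The levels of the 48 genes were given as FPKM, the number of sequenced fragments divided by transcript length and by the size of the library, so levels can be compared between genes. Means are given ± the SD of the 3 samples of a group. There were 27 genes above 1 FPKM in at least 1 sample (56.2%, compared with 55.8% of the 720 genes), and 5 genes were listed at 0 FPKM in all 12 samples. Among the classes of more than 1 gene, the receptor kinases were the weakest, with 4 of 17 genes above 1 FPKM in any sample and a median of 0.173 for the mean FPKM over all samples. In contrast, 11 of the 15 other protein kinases, 6 of the 8 protein phosphatases and 6 of the 7 metabolic or lipid kinases were above 1 FPKM in at least 1 sample, with medians of 3.13, 8.44 and 5.55 FPKM. The gene with the highest mean level was *Zm00001d000302*, a PP2C phosphatase described as PP2C59, with a mean of 56.9 FPKM. A second PP2C59 gene, *Zm00001d001988* (14.9 FPKM), and the receptor kinase gene *Zm00001d002175* (14.2 FPKM), described as FERONIA, came next. With a mean of 14.03 FPKM, the protein kinase gene *Zm00001d000396* was close to both, and the order of these 3 genes changed between the groups. In the WT at 12 DAP *Zm00001d000396* was the highest of them at 15.3 FPKM, and in *smk7a* at 12 DAP it was the lowest at 16.6 FPKM. Apart from the chloroplast term, the GO terms in the files were not used to choose the genes. Of the genes with the term protein serine/threonine kinase activity, 12 of the 16 in the table were among the 48, and so were 7 of the 9 with protein serine/threonine phosphatase activity. Nucleus was given for 9 of the 48 genes and plasma membrane for 7.

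**Figure D1:**
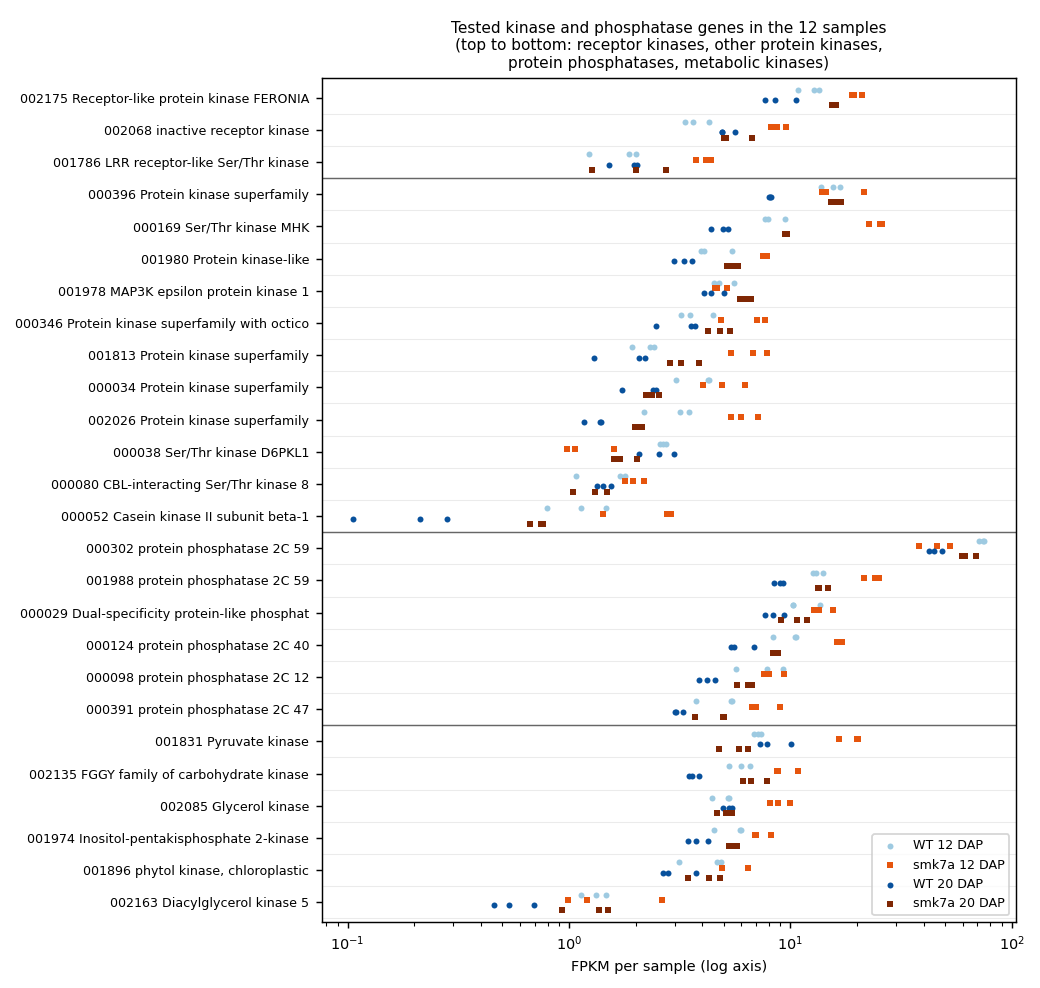
FPKM of the 26 kinase and phosphatase genes that were tested, on a log axis, with 1 row per gene (the last 6 digits of its identifier and its description) and 1 point per sample, coloured by genotype and stage; horizontal lines separate the 4 classes. The levels reach from 0.106 FPKM for casein kinase II subunit beta-1 in the WT at 20 DAP to 75.1 FPKM for PP2C59 (*Zm00001d000302*) in the WT at 12 DAP, and the points of *smk7a* at 12 DAP lie to the right of the WT for most genes.

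The FPKM of the 48 genes summed to 222 ± 9.02 in WT kernels and to 288 ± 13.2 in *smk7a* kernels at 12 DAP. At 20 DAP the sums were 152 ± 9.83 and 217 ± 1.98. These sums did not overlap between the genotypes at either stage. As a share of the FPKM of all 720 genes, they were nearly level, with group means from 4.80% to 4.94%. The share of the PP2C59 gene *Zm00001d000302* within the 48 genes was 33.2% ± 1.64 in WT kernels and 15.8% ± 1.80 in *smk7a* kernels at 12 DAP, while at 20 DAP it was 29.7% ± 0.919 and 29.2% ± 2.43.

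The groups were compared on log2(FPKM + 0.1) with limma, for all genes of the table that exceeded 1 FPKM in 3 or more of the samples compared. A differentially expressed gene (DEG) had an adjusted p under 0.05 together with more than a 2-fold change. Most genes tested in this table of 720 genes moved in the same direction in each comparison. Against it, 74 of 365 genes were below 0 for *smk7a* over WT at 12 DAP and 35 of 336 at 20 DAP. Over time, 53 of 344 genes in the WT and 84 of 364 in *smk7a* were above 0. The median log2 fold change of all genes tested, called the common shift below, was 0.48 for *smk7a* over WT at 12 DAP and 0.53 at 20 DAP. It was -0.55 for 20 over 12 DAP in the WT and -0.44 in *smk7a*. Scaling by the median of ratios, in which a sample is divided by its typical ratio to the average sample, removes this shift, so the DEGs are given below also with their values after this scaling. In whole kernels, fewer cells of a type and less RNA per cell cannot be told apart. At 12 DAP, 3 endosperm markers summed to 519 to 548 FPKM (median 525) in the WT and 195 to 259 (median 214) in *smk7a*. At 20 DAP the sums were 282 to 331 (median 319) and 183 to 322 (median 321). Each of the 3, *BETL4*, *dull endosperm1* and *endosperm specific protein1*, was lower in *smk7a* at 12 DAP. At 20 DAP, *endosperm specific protein1* was at -0.38 on the log2 scale (adjusted p = 0.0317) and at -0.94 after scaling (adjusted p = 0.00182). For *dull endosperm1* these values were -0.23 (adjusted p = 0.0845) and -0.80 (adjusted p = 0.00162). For *BETL4*, at 54.7 to 156 FPKM in *smk7a*, they were -0.05 (adjusted p = 0.901) and -0.62 (adjusted p = 0.252). The only expressed gene of 7 late embryogenesis genes was higher in *smk7a* at 12 DAP (28.0 to 36.2 FPKM, compared with 12.4 to 19.9 FPKM in the WT), and the other 6 were at 0 in all samples. For storage, the table held only 5 genes with the GO term nutrient reservoir activity, all described as germin-like proteins and none as a zein. None of these 5 was above 1 FPKM in any sample, and 1 of them was at 0 throughout, so they do not show the level of storage protein genes. Of the 7 photosynthesis genes, 2 exceeded 1 FPKM in a sample and 3 were at 0 throughout. Their summed FPKM was 7.83 to 12.3 (median 7.87) in WT kernels and 4.23 to 6.02 (median 4.59) in *smk7a* kernels at 12 DAP, without overlap, and the ranges overlapped at 20 DAP. The light-harvesting gene *Zm00001d001857* of this list was a downregulated DEG at 12 DAP (log2 fold change -2.76, adjusted p = 0.000496, and -3.21 after scaling). It entered the test only through the WT, since its *smk7a* samples reached at most 0.776 FPKM. The other expressed gene, *Zm00001d001812* (Rubisco Assembly Factor 1), was not lower, with means of 3.26 FPKM in the WT and 4.08 FPKM in *smk7a*. Its log2 fold change was 0.29 (adjusted p = 0.288) and -0.18 after scaling (adjusted p = 0.609). The part of such differences in tissue in the values below was not tested. Within the groups, the lowest correlation of a sample with another replicate of its group was between 0.918 and 0.970 over 375 genes. Replicate 3 of the WT and replicate 2 of *smk7a* at 12 DAP were the farthest from the others of their groups.

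Of the 48 genes, 26 could be tested at 12 DAP and 7 were DEGs, with 6 genes upregulated and 1 downregulated in *smk7a*. Over all 365 genes tested, 22.7% were DEGs (18.6% upregulated and 4.11% downregulated), so the kinase and phosphatase genes were near the background of the table. The upregulated genes encode a kinase related to cyclin-dependent kinases, 2 further protein kinases, 2 receptor kinases and pyruvate kinase, and the downregulated gene encodes a kinase of the D6 family. The median log2 fold change of the 26 genes was 0.67, compared with 0.48 over all genes tested. After median of ratios scaling these medians were 0.19 and 0.01, and 2 upregulated and 2 downregulated DEGs were found among the 26 genes (15.9% of all genes tested were DEGs, 7.67% upregulated and 8.22% downregulated). Without the fold-change threshold, 15 of the 26 genes had higher and 2 had lower levels in *smk7a* at an adjusted p under 0.05, where the background was 43.6% higher and 7.67% lower. The values of *smk7a* and the WT did not overlap for 18 of the 26 genes, 69.2%, compared with 60.5% of all genes tested, and after scaling for 14 genes, 53.8%, compared with 50.7%. With 3 samples against 3, an exact permutation test cannot go below p = 0.1, which is the value of every gene without overlap.

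**Figure D2:**
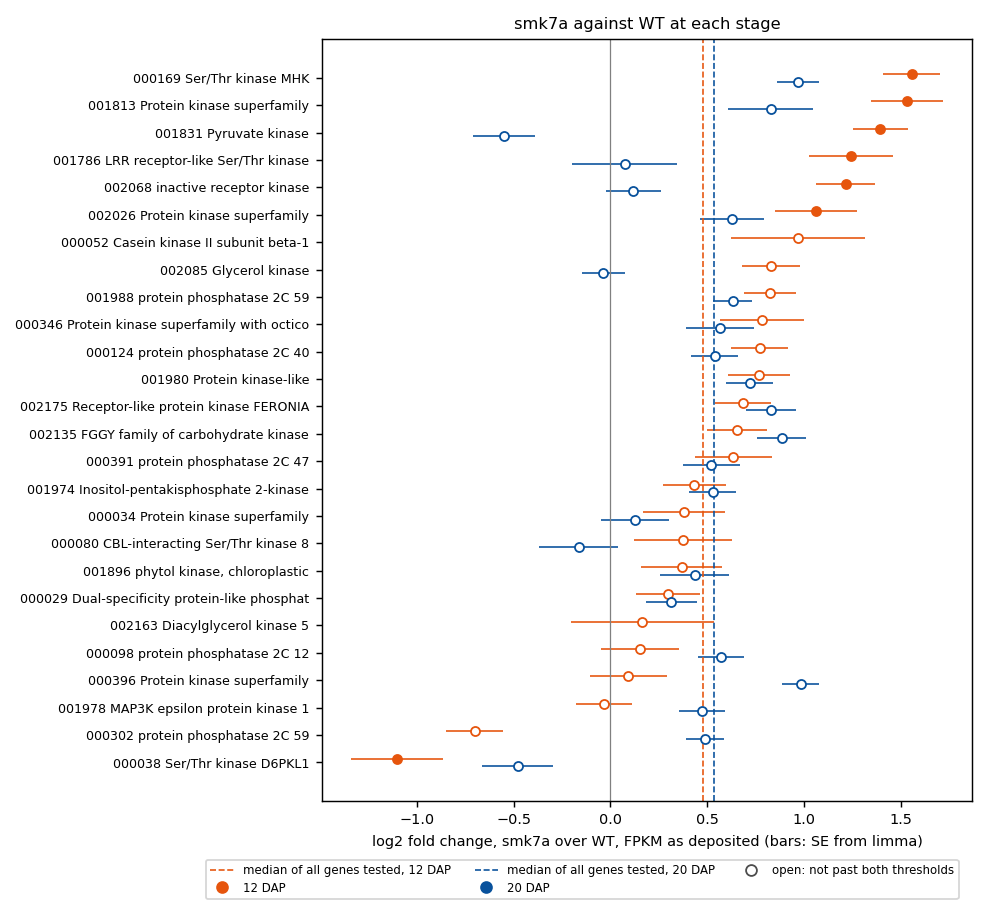
log2 fold change of *smk7a* over WT with its standard error (SE) for each kinase and phosphatase gene tested, at 12 DAP (orange) and 20 DAP (blue), with filled points for DEGs and dashed lines at the medians of all genes tested (0.48 and 0.53). The 7 filled points are all from 12 DAP, and pyruvate kinase lies at 1.39 at 12 DAP and at -0.55 at 20 DAP.

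Among the genes described as receptor kinases, 3 of 17 were tested at 12 DAP and 2 were upregulated. *Zm00001d002068*, described as a probable inactive receptor kinase, had 4.30, 3.34 and 3.62 FPKM in the WT and 8.17, 8.72 and 9.54 FPKM in *smk7a*. All 3 *smk7a* samples were above all WT samples (log2 fold change 1.21, SE 0.15, adjusted p = 0.00078). *Zm00001d001786* encodes a leucine-rich repeat receptor-like kinase and had 1.23, 1.87 and 2.003 FPKM in the WT and 4.15, 3.74 and 4.38 FPKM in *smk7a*, again without overlap (log2 fold change 1.24, SE 0.22, adjusted p = 0.00325). After median of ratios scaling both remained higher in *smk7a* with log2 fold changes of 0.74 (adjusted p = 0.00795) and 0.78 (adjusted p = 0.0407), which is below the 2-fold threshold. The third gene encodes FERONIA, which in *Arabidopsis* perceives RALF peptides and acts in fertilization and cell growth. Its levels were 13.5, 12.7 and 10.8 FPKM in the WT and 19.0, 21.1 and 19.3 FPKM in *smk7a*. The groups did not overlap, but the difference of 0.68 on the log2 scale (SE 0.14, adjusted p = 0.00605) was below the threshold, and it was 0.20 after scaling (adjusted p = 0.221).

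Of the 11 other protein kinases tested at 12 DAP, 3 were upregulated and 1 was downregulated. *Zm00001d000169*, a kinase gene described as MHK with the GO term cyclin-dependent protein serine/threonine kinase activity, had 9.43, 7.64 and 7.93 FPKM in the WT and 25.9, 22.6 and 25.3 FPKM in *smk7a*. The lowest *smk7a* sample was more than double the highest WT sample. The rise by 1.56 on the log2 scale (SE 0.15, adjusted p = 0.000204) was the largest among the 26 genes. MHK remained a DEG after scaling (1.07, adjusted p = 0.00161) except without replicate 2 of the WT (0.95). *Zm00001d001813* is annotated after the same *Arabidopsis* gene as the receptor-like kinase gene *Zm00001d001993* and has the GO term response to molecule of bacterial origin. The gene had 2.43, 2.31 and 1.93 FPKM in the WT and 6.76, 7.83 and 5.39 FPKM in *smk7a*. It also rose without overlap, by 1.53 on the log2 scale (SE 0.19, adjusted p = 0.000721) and by 1.06 after scaling (adjusted p = 0.00262), although the scaled value was below the threshold without replicate 2 of *smk7a*. *Zm00001d002026*, described only as a member of the protein kinase superfamily, had 3.18, 3.49 and 2.17 FPKM in the WT and 5.38, 7.16 and 5.997 FPKM in *smk7a*. Its groups were apart as well (log2 fold change 1.06, SE 0.21, adjusted p = 0.00522). This call was close to the threshold, since after scaling the value was 0.59 (adjusted p = 0.0369), and without replicate 3 of the WT or replicate 2 of *smk7a* the gene was no longer a DEG (lowest log2 fold change 0.86).

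The downregulated gene *Zm00001d000038* is described as D6PKL1. In *Arabidopsis*, kinases of the D6 family phosphorylate PIN proteins, which carry auxin out of the cell. Its levels were 2.58, 2.75 and 2.67 FPKM in the WT and 1.06, 1.60 and 0.981 FPKM in *smk7a*. The WT samples were close to each other and all above the *smk7a* samples, and the gene fell by 1.10 on the log2 scale (SE 0.24, adjusted p = 0.00657). It moved against the common shift and was -1.56 after scaling (adjusted p = 0.00242). Without replicate 3 of *smk7a* the FPKM as deposited gave -0.97, below the threshold, whereas after scaling the gene was a DEG in each of the 6 fits that left out 1 replicate.

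No protein phosphatase was a DEG at 12 DAP with the FPKM as deposited, although 3 of the 6 tested were higher and 1 was lower in *smk7a* at an adjusted p under 0.05. The lower one was the PP2C59 gene *Zm00001d000302*, with 75.1, 71.3 and 74.3 FPKM in the WT and 38.2, 52.6 and 45.8 FPKM in *smk7a*. Every *smk7a* sample was below every WT sample, and the *smk7a* samples were more spread. With the FPKM as deposited the difference was -0.70 on the log2 scale (SE 0.15, adjusted p = 0.00605). After scaling it was -1.19 (adjusted p = 0.00161), which made the gene a DEG, also with any replicate left out. The second PP2C59 gene *Zm00001d001988* had 13.0, 14.04 and 12.7 FPKM in the WT and 21.5, 25.2 and 24.1 FPKM in *smk7a*, so it was higher where the first was lower. The difference was 0.82 on the log2 scale (SE 0.13, adjusted p = 0.00233) and 0.34 after scaling (adjusted p = 0.0764). The opposite signs of these genes held with both scalings. Reads shared by such similar genes can be split in counting, and the sources used here do not state how shared reads were assigned. Among the other phosphatase genes, *Zm00001d000124* (PP2C40) had means of 9.82 ± 1.27 and 16.7 ± 0.505 FPKM in WT and *smk7a* kernels, and *Zm00001d000391* (PP2C47), which in *Arabidopsis* is tied to salt and abscisic acid responses, had 4.86 ± 0.959 and 7.56 ± 1.24 FPKM. Both were without overlap and below the threshold, and after scaling the log2 differences were 0.29 (adjusted p = 0.0923) and 0.16 (adjusted p = 0.506). *Zm00001d000098* (PP2C12) and the dual-specificity phosphatase gene *Zm00001d000029* overlapped between the genotypes.

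Of the 6 metabolic or lipid kinases tested, 1 was upregulated at 12 DAP. It was *Zm00001d001831*, which encodes pyruvate kinase, the enzyme that makes pyruvate and ATP from phosphoenolpyruvate in the last step of glycolysis. Its levels were 6.81, 7.36 and 7.13 FPKM in the WT and 20.2, 16.5 and 19.9 FPKM in *smk7a*. The lowest *smk7a* sample was again more than double the highest WT sample, and the gene rose by 1.39 on the log2 scale (SE 0.14, adjusted p = 0.000273). The scaled value was 0.91 (adjusted p = 0.0032). *Zm00001d002085*, a glycerol kinase gene whose enzyme makes glycerol 3-phosphate, had 5.25, 5.25 and 4.44 FPKM in the WT and 8.75, 8.08 and 9.97 FPKM in *smk7a*. The groups did not overlap, and the difference of 0.83 on the log2 scale (SE 0.15, adjusted p = 0.00346) was below the threshold and was 0.35 after scaling (adjusted p = 0.0727). The inositol-pentakisphosphate 2-kinase gene *Zm00001d001974*, which acts in phytic acid synthesis, the FGGY carbohydrate kinase gene *Zm00001d002135* and the phytol kinase gene *Zm00001d001896*, which belongs to vitamin E synthesis, were also higher without overlap, with means of 5.47, 5.95 and 4.22 FPKM in the WT and 7.38, 9.42 and 5.41 FPKM in *smk7a*. After scaling the directions for *Zm00001d001974* and *Zm00001d001896* turned (-0.04 and -0.11 on the log2 scale), and the difference for *Zm00001d002135* was 0.18 (adjusted p = 0.437). *Zm00001d002163*, a gene for diacylglycerol kinase, which makes phosphatidic acid, overlapped between the genotypes.

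For 20 DAP, limma tested 24 of the 48 genes and found 0 DEGs, compared with 15.8% of all 336 genes tested (14.3% upregulated and 1.49% downregulated). There were 19 of the 24 genes with an unadjusted p under 0.05, and 15 were higher and 2 were lower in *smk7a* at an adjusted p under 0.05 without the fold-change threshold, where the background was 65.8% higher and 4.17% lower. The median log2 fold change was 0.52, close to the 0.53 over all genes tested, and it was -0.03 after median of ratios scaling. The groups did not overlap for 17 genes, 70.8%, compared with 73.2% of all genes tested. After scaling, 2 of the 24 genes were DEGs, both lower in *smk7a* (8.33% of all genes tested were DEGs, 3.87% upregulated and 4.46% downregulated), and 10 genes were without overlap (41.7%, compared with 44.0% of all genes tested).

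The genes that came closest to a 2-fold difference at 20 DAP were *Zm00001d000396* and the MHK gene. *Zm00001d000396* is annotated after *HT1*, a kinase gene that in *Arabidopsis* acts in the response of stomata to carbon dioxide, and had 8.05, 8.20 and 8.02 FPKM in the WT and 16.2, 15.2 and 16.9 FPKM in *smk7a*. The WT samples were nearly equal and far below the *smk7a* samples (log2 fold change 0.98, SE 0.09, adjusted p = 0.000116). This gene was chosen after its values were seen. The MHK gene had 4.97, 4.36 and 5.22 FPKM in the WT and 9.50, 9.69 and 9.54 FPKM in *smk7a*, again without overlap (log2 fold change 0.97, SE 0.11, adjusted p = 0.000241). Each of them became a DEG when 1 replicate was left out, *Zm00001d000396* without replicate 2 of *smk7a* and MHK without replicate 3 of the WT. After scaling, their log2 fold changes were 0.42 (adjusted p = 0.0187) and 0.41 (adjusted p = 0.00773).

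FERONIA and the second PP2C59 gene were higher in *smk7a* at 20 DAP as well. FERONIA had 10.5, 7.66 and 8.49 FPKM in the WT and 16.1, 15.7 and 15.4 FPKM in *smk7a* (log2 fold change 0.83, SE 0.13, adjusted p = 0.000893). *Zm00001d001988* had 9.26, 8.42 and 8.9998 FPKM in the WT and 13.3, 14.8 and 13.4 FPKM in *smk7a* (log2 fold change 0.63, SE 0.10, adjusted p = 0.000893). Neither gene overlapped between the genotypes, and after scaling the differences were 0.26 (adjusted p = 0.0917) and 0.07 (adjusted p = 0.556).

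The 2 lower genes at 20 DAP were D6PKL1 and pyruvate kinase. D6PKL1 had 2.06, 2.55 and 2.99 FPKM in the WT and 1.60, 2.03 and 1.70 FPKM in *smk7a*. The highest *smk7a* sample was just below the lowest WT sample, and the difference was -0.48 on the log2 scale (SE 0.18, adjusted p = 0.0444) and -1.02 after scaling (adjusted p = 0.00673). The scaled value was below the fold-change threshold in 4 of the 6 fits that left out 1 replicate, those without replicates 2 or 3 of the WT or replicates 1 or 3 of *smk7a* (-0.93 was the smallest difference). Pyruvate kinase had 7.80, 7.31 and 10.03 FPKM in the WT and 4.74, 6.44 and 5.87 FPKM in *smk7a*, without overlap. It differed by -0.55 on the log2 scale (SE 0.16, adjusted p = 0.0159) with the FPKM as deposited and by -1.11 after scaling (adjusted p = 0.00148), and the scaled value remained a DEG whichever replicate was left out.

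**Figure D3:**
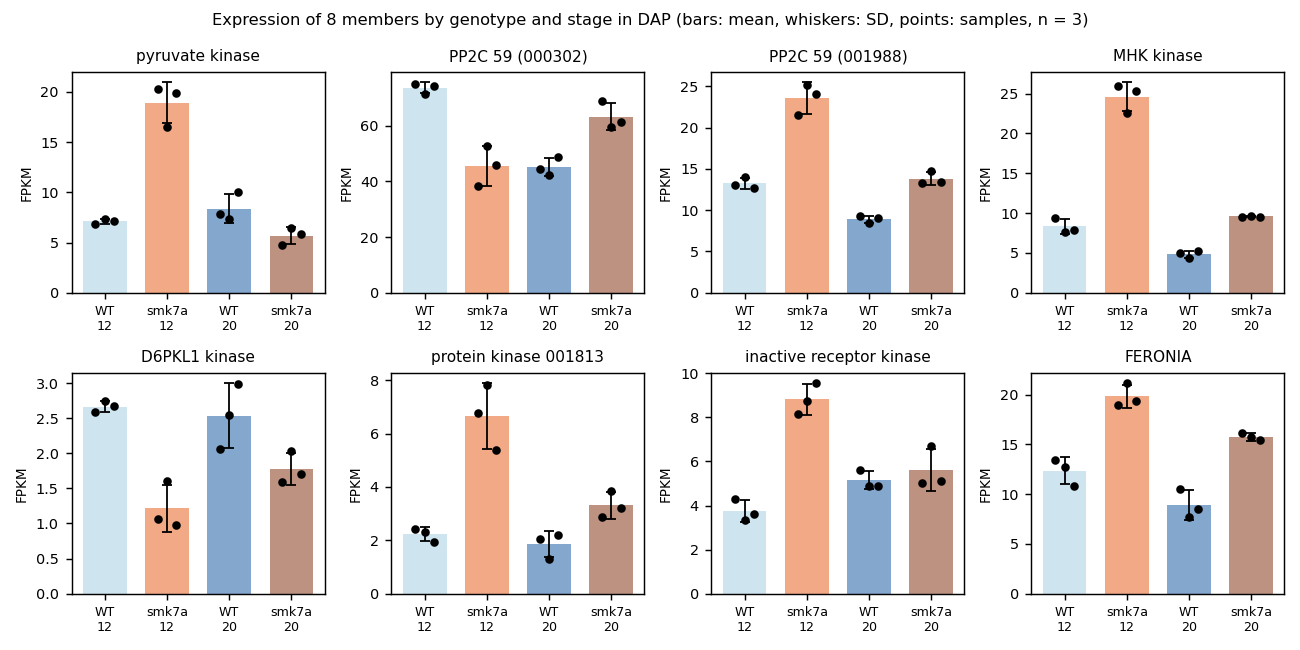
FPKM of 8 of the genes by genotype and stage in DAP, with bars for means, whiskers for SD and points for the 3 samples of each group; each vertical axis starts at 0. Pyruvate kinase is high in *smk7a* at 12 DAP only (mean 18.9 FPKM, compared with 5.68 to 8.38 FPKM in the other groups), and PP2C59 (*Zm00001d000302*) is highest in the WT at 12 DAP (73.6 FPKM).

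Whether the difference between *smk7a* and the WT itself differed between the stages was tested by the stage interaction over all 12 samples, for which only an adjusted p under 0.05 was asked. There were 7 of 26 genes past it, compared with 21.1% of all 375 genes tested (13.1% with a higher value at 20 DAP and 8.0% with a lower one). In 2 genes the log2 fold change was higher at 20 DAP than at 12 DAP and in 5 it was lower. After scaling, 9 genes passed (24.0% of all genes tested), the same 7 among them. Pyruvate kinase had the largest interaction, with -1.94 (SE 0.22, adjusted p = 0.000127), going from higher in *smk7a* at 12 DAP to lower at 20 DAP, and this change of direction held with both scalings. For the PP2C59 gene *Zm00001d000302* the interaction was 1.19 (SE 0.18, adjusted p = 0.000634). Its levels at 20 DAP were 44.3, 42.3 and 48.6 FPKM in the WT and 68.9, 59.6 and 61.4 FPKM in *smk7a*. The *smk7a* samples were thus above the WT at 20 DAP and below it at 12 DAP, although the difference at 20 DAP (log2 fold change 0.49, SE 0.10, adjusted p = 0.00293) was close to the common shift and was -0.08 after scaling (adjusted p = 0.6).

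Both upregulated genes described as receptor kinases had lower differences at 20 DAP. *Zm00001d002068* had 5.61, 4.90 and 4.90 FPKM in the WT and 5.03, 6.72 and 5.13 FPKM in *smk7a* at 20 DAP, with an interaction of -1.10 (SE 0.21, adjusted p = 0.00322). *Zm00001d001786* had 1.97, 1.51 and 2.03 FPKM in the WT and 1.27, 2.75 and 2.01 FPKM in *smk7a*, with an interaction of -1.17 (SE 0.36, adjusted p = 0.0375). The genotypes overlapped at 20 DAP in both genes, with log2 fold changes of 0.12 (SE 0.14, adjusted p = 0.459) and 0.07 (SE 0.27, adjusted p = 0.809). After scaling both directions turned, to -0.44 (adjusted p = 0.0344) and -0.47 (adjusted p = 0.206). The interaction was -0.58 (SE 0.17, adjusted p = 0.0281) for MHK, where *smk7a* was higher at both stages. It was 0.89 (SE 0.22, adjusted p = 0.0162) for *Zm00001d000396*, which at 12 DAP had 16.8, 15.5 and 13.7 FPKM in the WT and 13.9, 21.5 and 14.5 FPKM in *smk7a*, with overlap. For glycerol kinase, with 5.43, 4.94 and 5.29 FPKM in the WT and 4.68, 5.13 and 5.47 FPKM in *smk7a* at 20 DAP, the interaction was -0.87 (SE 0.18, adjusted p = 0.00538). Its difference at 20 DAP was -0.04 on the log2 scale (adjusted p = 0.772) with the FPKM as deposited and -0.59 after scaling (adjusted p = 0.00248). The glycerol kinase gene was likewise chosen after its values were seen. With the FPKM as deposited, MHK and *Zm00001d001786* passed in only 4 of the 12 fits that left out 1 replicate each (highest adjusted p 0.0674 and 0.0853), while the other 5 genes passed in all 12.

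From 12 to 20 DAP, the WT had 2 downregulated DEGs among 25 kinase and phosphatase genes tested, compared with 17.7% DEGs among all 344 genes tested (15.7% downregulated). In *smk7a*, 6 of 26 genes were DEGs and all were downregulated (19.2% DEGs among all 364 genes tested, 16.2% downregulated). The stages did not overlap for 16 of 25 genes in the WT (64.0%, compared with 67.7% of all genes tested) and for 22 of 26 genes in *smk7a* (84.6%, compared with 62.9%). With median of ratios scaling this held for 8 of 25 genes in the WT, compared with 42.7% of all genes tested, and for 12 of 26 genes in *smk7a*, compared with 52.7%. The median log2 fold change was -0.47 in the WT and -0.53 in *smk7a*, which is close to the common shifts of -0.55 and -0.44. After scaling, 0 genes were DEGs in the WT by limma, where 8 of 25 had an unadjusted p under 0.05 (9.3% of all genes tested were DEGs), and 3 genes were downregulated DEGs in *smk7a* (11.8% of all genes tested were DEGs, 6.87% downregulated). These stage comparisons share their samples with the comparisons of the genotypes.

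**Figure D4:**
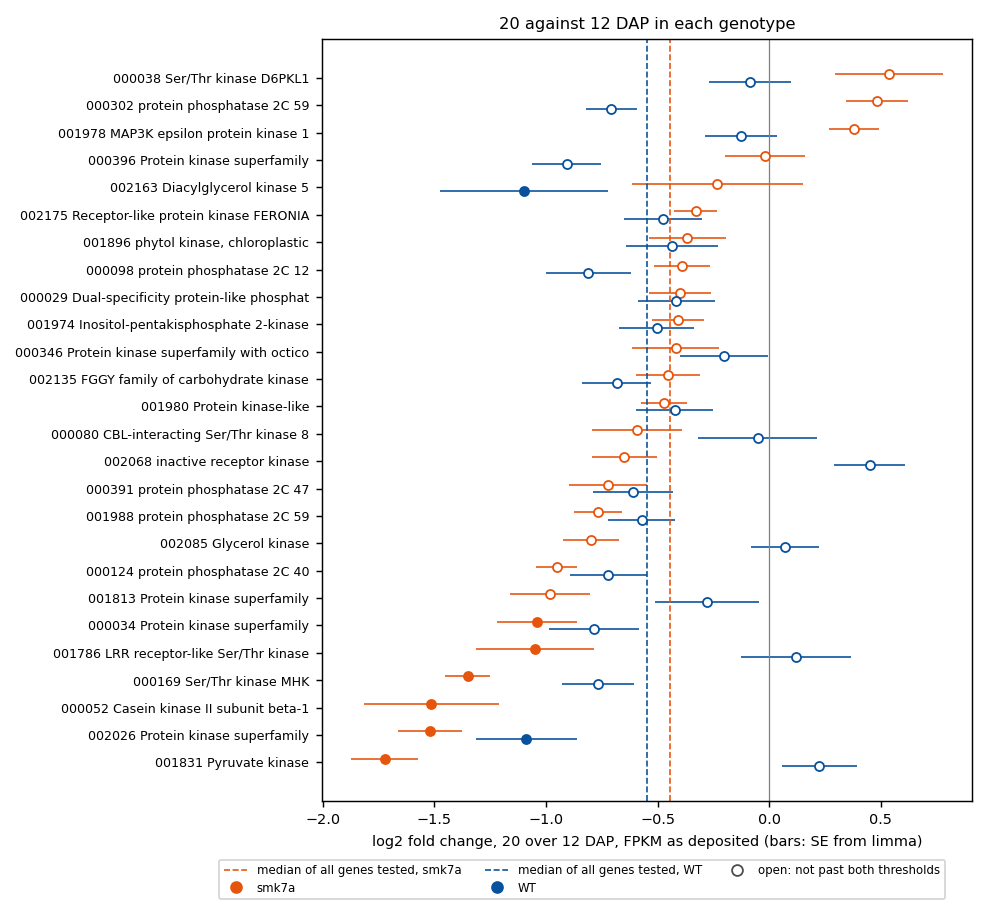
log2 fold change of 20 over 12 DAP with its SE for each kinase and phosphatase gene tested, in *smk7a* (orange) and the WT (blue), with filled points for DEGs and dashed lines at the medians of all genes tested (-0.44 and -0.55). The largest fall is that of pyruvate kinase in *smk7a* at -1.72, and no filled point lies above 0.

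In *smk7a*, pyruvate kinase fell by 1.72 on the log2 scale (SE 0.15, adjusted p = 0.000339), from a mean of 18.9 ± 2.04 to 5.68 ± 0.862 FPKM, and by 1.28 after scaling (adjusted p = 0.00138). In the WT its stages overlapped, with means of 7.10 ± 0.274 and 8.38 ± 1.45 FPKM. *Zm00001d002026* was the only DEG in both genotypes. It fell by 1.52 in *smk7a* (SE 0.14, adjusted p = 0.000421) to 2.14, 2.12 and 1.98 FPKM, and by 1.09 in the WT (SE 0.23, adjusted p = 0.00263) to 1.38, 1.17 and 1.39 FPKM. After scaling only the fall in *smk7a* was past the threshold (-1.09, adjusted p = 0.00189), and in the WT it was lost without replicate 2 of 12 DAP. The casein kinase II subunit beta-1 gene *Zm00001d000052*, which encodes the regulatory subunit of this kinase, fell by 1.51 in *smk7a* (SE 0.30, adjusted p = 0.00616), from 2.76, 2.89 and 1.42 FPKM to 0.663, 0.748 and 0.764 FPKM. Its WT samples had 1.47, 1.13 and 0.799 FPKM at 12 DAP, where they overlapped with *smk7a*, and 0.282, 0.106 and 0.211 FPKM at 20 DAP, all below *smk7a*. Too few were above 1 FPKM for a test over time in the WT. In *smk7a* only the samples of 12 DAP exceeded 1 FPKM, so the gene entered the test only through the stage where it was high, and the filter favoured a fall. It was not tested when any replicate of 12 DAP was left out, and after scaling it fell by 1.10 (adjusted p = 0.0253). In the 3 scaled fits without a replicate of 20 DAP the log2 fold change was -1.13 to -1.07 with adjusted p of 0.0619 to 0.0646, so the call was lost while the size was kept.

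MHK fell by 1.35 in *smk7a* (SE 0.10, adjusted p = 0.00017), and the scaled value of -0.91 (adjusted p = 0.00138) was below the fold-change threshold. The LRR receptor kinase gene *Zm00001d001786* fell by 1.05 (SE 0.27, adjusted p = 0.0154), and *Zm00001d000034*, annotated after *CDC7*, a kinase that starts DNA replication in yeast and animals, fell by 1.04 (SE 0.18, adjusted p = 0.00342). The latter went from 4.92, 4.03 and 6.23 FPKM to 2.54, 2.37 and 2.22 FPKM without overlap, and it is named because it completes the 6 DEGs. The calls of *Zm00001d001786* and *Zm00001d000034* were lost after scaling as well (-0.62, adjusted p = 0.0953, and -0.61, adjusted p = 0.0438), and also without replicate 3 of 12 DAP and without replicate 1 (*Zm00001d001786*) or 3 (*Zm00001d000034*) of 20 DAP. In the WT, the other DEG was diacylglycerol kinase, which fell by 1.10 (SE 0.38, adjusted p = 0.0245), from 1.14, 1.48 and 1.33 FPKM to 0.535, 0.698 and 0.459 FPKM. Again only the samples of 12 DAP exceeded 1 FPKM, so this gene too entered the test through the stage where it was high. After scaling its fall was 0.60 (adjusted p = 0.223), and it was not tested without any replicate of 12 DAP and lost without replicate 3 of 20 DAP. In *smk7a* its replicate 2 of 12 DAP, at 2.64 FPKM, was far above the 0.993 and 1.21 FPKM of the others. Against the common fall, PP2C59 (*Zm00001d000302*) and the MAP3K epsilon gene *Zm00001d001978* were higher at 20 than at 12 DAP in *smk7a* without overlap, with means of 63.3 and 45.6 FPKM for the former and 6.27 and 4.80 FPKM for the latter, both below the fold-change threshold.

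Among the protein kinases without a DEG in any comparison, the octicosapeptide domain kinase gene *Zm00001d000346*, annotated after *EDR1*, which in *Arabidopsis* limits defense responses, had means of 3.73 ± 0.662 and 6.55 ± 1.498 FPKM in the WT and *smk7a* at 12 DAP and of 3.24 ± 0.666 and 4.80 ± 0.538 FPKM at 20 DAP. *Zm00001d001980*, described as protein kinase-like, had 4.49 ± 0.833 and 7.63 ± 0.180 FPKM at 12 DAP and 3.30 ± 0.302 and 5.48 ± 0.322 FPKM at 20 DAP. With the FPKM as deposited, both were higher in *smk7a* without overlap at both stages. After scaling, *Zm00001d000346* differed by 0.31 at 12 DAP (adjusted p = 0.276) and 0.01 at 20 DAP (adjusted p = 0.951) on the log2 scale. *Zm00001d001980* differed by 0.29 (adjusted p = 0.144) and 0.16 (adjusted p = 0.339). The product of the CIPK8 gene *Zm00001d000080* belongs to the kinases bound by calcineurin B-like calcium sensors. With the FPKM as deposited, this gene overlapped between the genotypes at both stages, with means from 1.28 to 1.97 FPKM. After scaling its log2 fold change was -0.08 at 12 DAP (adjusted p = 0.824) and -0.69 at 20 DAP (adjusted p = 0.0342).

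There were 22 of the 48 genes with too low an expression for any test, and their values are given only as levels. There were 14 receptor kinases among them, and 8 of these carry identifiers from *Zm00001d002168* to *Zm00001d002199*, 4 of them described as SD1-8 and 3 as B120, both S-domain receptor kinases. Whether the sequences of these genes are near-identical was not checked. Near-identical copies can share reads, so the single values of these genes are uncertain. *Zm00001d002198*, the most expressed SD1-8 gene, had 0.959, 1.1995 and 0.775 FPKM in the WT and 0.391, 0.459 and 0.468 FPKM in *smk7a* at 12 DAP. Its neighbour *Zm00001d002199*, with the same description, had 0.283, 0.269 and 0.308 FPKM in the WT and 0.0574, 0.131 and 0.0824 FPKM in *smk7a*. Both were lower in *smk7a* without overlap, and both overlapped between the genotypes at 20 DAP. The MIK2 receptor kinase gene *Zm00001d000189* had 0.0131, 0 and 0.0382 FPKM in the WT and 0.506, 0.315 and 0.201 FPKM in *smk7a* at 12 DAP, and at most 0.0389 FPKM in any sample at 20 DAP. The wall-associated kinase gene *Zm00001d002039* was higher in *smk7a* without overlap at 12 DAP, with means of 0.614 ± 0.0307 and 0.820 ± 0.0228 FPKM. These low genes were picked after their values were seen. Both genes described as PP2C33, the *bri1*-like receptor kinase gene *Zm00001d000055*, an amino acid kinase gene and *Zm00001d002106* were the 5 genes at 0 in all samples.

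Genes of the same pathways outside the 48 were taken from 2 lists. Of the 20 genes with a GO term for kinase or phosphatase activity or protein phosphorylation but without these words in the description or with the chloroplast term, 6 were tested at each stage, with 0 DEGs at 12 DAP by limma (4 had an unadjusted p under 0.05) and 1 upregulated gene at 20 DAP, *Zm00001d001885* (adenylate kinase, from a mean of 0.753 to 1.80 FPKM, log2 fold change 1.11, adjusted p = 0.00954, and 0.59 after scaling, adjusted p = 0.17). At 20 DAP the WT samples of *Zm00001d001885* reached at most 0.821 FPKM and its *smk7a* samples were all above 1 FPKM. The gene thus entered that test only through the group where it was high, and the filter favoured a rise. The median log2 fold change of this list was 0.46 at 12 DAP and 0.45 at 20 DAP, below the medians of 0.48 and 0.53 over all genes tested. The second list was sought by calcium, G protein and cyclin descriptions. It held 5 genes with calcium, calmodulin or cyclin descriptions and no G protein gene, and 4 of them were tested at 12 DAP. The calcium sensor gene *CML21* (*Zm00001d000256*) was the only DEG, with means of 20.9 ± 2.53 and 2.91 ± 0.808 FPKM in WT and *smk7a* kernels (log2 fold change -2.83, adjusted p = 0.000116, and -3.31 after scaling, adjusted p = 0.000125). At 20 DAP its means were 9.41 ± 0.649 and 7.36 ± 0.343 FPKM. Of the 3 genes of this list tested at 20 DAP, 1 was upregulated, *Zm00001d000046* (calcineurin B-like9, log2 fold change 1.18, adjusted p = 0.00131, and 0.62 after scaling, adjusted p = 0.0259), which encodes a calcium sensor of the kind that binds CIPK kinases. With median of ratios scaling, neither list held a DEG at 20 DAP, where 2 and 3 genes had an unadjusted p under 0.05 by limma. Over time the first list held no DEG in either genotype (unadjusted p under 0.05 in 2 of 5 genes in the WT and in 1 of 6 in *smk7a*), while *CML21* fell by 1.14 on the log2 scale in the WT (adjusted p = 0.000307) and rose by 1.34 in *smk7a* (adjusted p = 0.00177). After scaling its rise in *smk7a* was 1.78 (adjusted p = 0.00133), and its value in the WT was -0.59 (adjusted p = 0.0113), no longer a DEG.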

How the data were processed

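RNA of whole kernels was sequenced by the authors as stranded mRNA libraries. After trimming (Trimmomatic is named in the submitters' processing notes), reads were mapped to B73 RefGen_V4 with HISAT2, and reads without a perfect match were dropped. The authors deposited FPKM per gene and sample with descriptions, GO terms and pathways. The program that made the FPKM is not given in the sources used here. The table as analysed here is cut off inside the row of gene 720, and 0 value columns were left unused. It holds no read totals, and the steps between low values did not give fragments per sample, so the depth and the counting error are not given. The authors tested pairs of groups with DESeq2; only FPKM were analysed here, so limma replaced it.

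Groups and replicate numbers were taken from the sample labels. Genes that exceeded 1 FPKM in 3 or more of the samples compared were tested on log2(FPKM + 0.1), a scale that understates the change of weakly expressed genes, with limma 3.58.1 in R 4.3.3 (lmFit, eBayes with trend) over all genes of the table. Benjamini-Hochberg adjustment was made over all genes tested, and every adjusted p in the text comes from limma. A DEG had an adjusted p under 0.05 and a fold change above 2. Each comparison of 2 groups used its 6 samples, and the stage interaction used all 12. P-values measure only the spread between these samples. The fits were also run on simulated data, with spreads shuffled over genes and changes larger than those of the 26 tested genes between the genotypes. Its outcome is not given, so this simulation does not show how well changes of the size found here are detected. Python 3.11.15 with numpy 2.4.6, pandas 2.3.3 and scipy 1.17.1 made the tables, and matplotlib 3.10.9 drew the figures.

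Genes, classes and lists were chosen with earlier results of these data known. Genes named with full values are the DEGs between the genotypes with either scaling and the 3 highest mean FPKM. The 3 largest stage DEGs in each genotype, the 3 smallest interaction p-values and neighbouring genes with the same description also have full values. For other genes the text says that they were picked with their values known, or gives levels, overlap and in places differences after scaling. G protein was matched as whole words in the second list. Alternatives were pseudocounts of 1 and 0.01, a filter of 0.5 FPKM or none, median of ratios and upper quartile scaling, limma without trend, leaving out each replicate in turn, no fold-change threshold, a replicate block, and a single model of all 12 samples. Of the 720 identifiers, 0 matched the gene name table, so no coordinates or sequences are given, and a check of gene length or GC content was void.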

Additional observations from a re-analysis of the deposited data

Results flagged for a closer look

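In 7 genes the difference between *smk7a* and the WT differed between the stages by the stage interaction of limma (adjusted p under 0.05, log2 fold change at 20 DAP minus that at 12 DAP). The values were -1.94 for pyruvate kinase (*Zm00001d001831*), -1.17 for *Zm00001d001786*, -1.10 for *Zm00001d002068*, -0.87 for glycerol kinase (*Zm00001d002085*), -0.58 for MHK (*Zm00001d000169*), 0.89 for *Zm00001d000396* and 1.19 for PP2C59 (*Zm00001d000302*). Groups of 3 samples were not tested for single samples far from the others.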

How the results depend on the processing

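At 12 DAP the number of DEGs changed from 7 to 4 with a pseudocount of 1 (all among the 7), to 4 with median of ratios scaling and 4 with upper quartile scaling (3 of the 7 and *Zm00001d000302* in each), and to 17 without the fold-change threshold. At 20 DAP the number changed from 0 to 2 with a filter of 0.5 FPKM, 4 with no filter, 2 with median of ratios scaling, 1 with upper quartile scaling and 17 without the fold-change threshold. From 12 to 20 DAP in the WT the 2 DEGs became 0 with a pseudocount of 1, with median of ratios scaling and with upper quartile scaling, 4 with no filter and 14 without the fold-change threshold. Of all 344 genes tested there, 15 were higher and 195 were lower without this threshold. In *smk7a* the 6 DEGs became 3, 3 and 3 with these first alternatives and 21 without the fold-change threshold, where 20 of all 364 genes tested were higher and 172 were lower. For the other pseudocounts, the other filters and upper quartile scaling, shares over all genes are not given, so these counts cannot be set against the background. The number past the stage interaction was 7 to 9 under the alternatives that kept all samples. All 7 genes were among them except with no filter, where *Zm00001d001786* was lost (adjusted p = 0.0656). The cause of these changes was not tested, except that the fold-change threshold and the filter set how many genes can pass.

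With 1 replicate left out at a time, the numbers ranged from 6 to 8 at 12 DAP, 0 to 1 at 20 DAP, 0 to 2 in the WT over time, 4 to 7 in *smk7a* over time and 5 to 9 for the interaction. In an alternative chosen after seeing the data, median of ratios scaling with each replicate left out, they ranged from 3 to 4, 1 to 2, 0 to 1, 2 to 4 and 5 to 8, respectively.

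After median of ratios scaling the sign of the log2 fold change turned for 8 of 26 genes at 12 DAP, 10 of 24 at 20 DAP, 10 of 25 in the WT over time, 8 of 26 in *smk7a* over time and 2 of 26 in the interaction. Of these, 0 were called in that comparison with either scaling. The values below are for the genes given with full values. With median of ratios and upper quartile scaling, respectively, the log2 fold change of *smk7a* over WT was -0.08 and -0.03 for *Zm00001d000302*, -0.47 and -0.41 for *Zm00001d001786* and -0.44 and -0.39 for *Zm00001d002068* at 20 DAP, and -0.39 and -0.35 for *Zm00001d000396* at 12 DAP. Leaving out replicates gave 0.42 to 0.54 for *Zm00001d000302*, -0.17 to 0.35 for *Zm00001d001786*, -0.02 to 0.19 for *Zm00001d002068* and -0.09 to 0.02 for *Zm00001d002085* at 20 DAP, and -0.11 to 0.21 for *Zm00001d000396* at 12 DAP. With median of ratios scaling as well, *Zm00001d000302* had -0.16, -0.13, -0.07, -0.06, -0.04 and -0.01, *Zm00001d001786* had values from -0.68 to -0.21 with -0.45 and -0.43 between them, *Zm00001d002068* from -0.54 to -0.36 with -0.51 and -0.42, and *Zm00001d000396* from -0.57 to -0.27 with -0.31.

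A replicate block gave 7, 0, 2, 6 and 7 genes in the 5 comparisons, all shared with the fits without it. Deviations of same-numbered samples correlated between -0.295 and 0.171, and no comparison had all 3 pairs above 0.1, so the block stayed an alternative. Whether numbers mark shared ears is not known. FPKM without read totals, 3 replicates and a table cut off after 720 genes limit the precision, and no statement covers kinase genes outside it.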
